A study of Mus musculus with 2 samples.

Results

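Cytochrome P450 genes were compared on 2 arrays of mouse liver RNA. All animals lacked apolipoprotein E and received a high-fat diet. For 1 array, here called the orujo array after its title, the diet had been enriched with the unsaponifiable fraction of olive oil, that is, its minor components other than fatty acid esters. For the other, the olive array, it had been enriched with olive oil itself. The question of the series is the effect on hepatic gene expression of different olive oil types. The labels used here give no sex, age, strain background, diet duration or number of animals behind each array. The P450 genes were taken by symbol: every probe set with a single annotated symbol that starts with Cyp and a digit, apart from 9 genes of bile acid synthesis, sterol synthesis and the CYP2B group (Cyp7a1, Cyp7b1, Cyp8b1, Cyp27a1, Cyp39a1, Cyp51, Cyp2b9, Cyp2b10 and Cyp2b13). This left 63 of 22626 probe sets, which represent 54 of 12393 genes in 24 subfamilies.

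Cytochromes P450 are heme enzymes that insert an oxygen atom into a substrate, with electrons that reach them through partner proteins. In the liver, families CYP1, CYP2 and CYP3 oxidise drugs, plant compounds and steroids, family CYP4 hydroxylates the ends of fatty acids and eicosanoids, and CYP26 breaks down retinoic acid. The transcription of many of them is controlled by nuclear receptors and by the aryl hydrocarbon receptor, and in mice also by sex and by the circadian clock. A P450 name gives the family by its number and the subfamily by its letter, and genes of a subfamily often lie side by side in the genome.

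Signals are scaled probe set intensities, which are not comparable between different probe sets, so each gene is compared only with itself on the other array. A floor of 35.6, the 50th percentile of the pooled intensities, stands in for detection, and a gene above it on both arrays is called measured. Ratios are the orujo array over the olive array on the log2 scale. With 1 array per diet no test was possible and no value has an error between animals. The only repeated measurement is a second probe set of a gene: over 1453 genes with exactly 2 measured probe sets, the noise of a single probe set had an SD of 0.31 on the log2 scale, which covers no variation between animals.

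Sequence before the annotated start is shown for 5 genes picked with their ratios known, from RefSeq promoters of build GRCm38.p6. Cyp26a1, which encodes the retinoic acid hydroxylase, had the highest ratio of the measured P450 genes, and its sequence is shown for its response element (chr19:37697688-37697807, plus strand). Capitals mark a direct repeat of TGAACT with a spacer of 5 bases of any kind, the form of retinoic acid response element searched for on both strands.
Cyp26a1: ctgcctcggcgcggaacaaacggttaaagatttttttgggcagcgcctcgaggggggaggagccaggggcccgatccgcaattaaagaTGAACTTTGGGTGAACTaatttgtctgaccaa

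The other sequences are shown as 2 pairs of CYP2C genes, because the members of the first pair were both lower on the orujo array and those of the second pair differed. The first listed promoter window of each gene was used, which need not be the start in use. In each pair, capitals mark the bases that were not identical to the partner in a global alignment of these stretches. The stretches are chr19:39992304-39992423 (plus strand) for Cyp2c37, chr19:40089559-40089678 (plus strand) for Cyp2c50, chr19:39463076-39463195 (minus strand) for Cyp2c38 and chr19:39347226-39347345 (plus strand) for Cyp2c39.
Cyp2c37: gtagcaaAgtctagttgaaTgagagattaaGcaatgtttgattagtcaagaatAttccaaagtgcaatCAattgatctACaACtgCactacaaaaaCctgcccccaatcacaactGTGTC
Cyp2c50: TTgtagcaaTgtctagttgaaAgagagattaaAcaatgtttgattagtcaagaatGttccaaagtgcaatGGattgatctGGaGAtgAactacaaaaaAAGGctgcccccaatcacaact
Cyp2c38: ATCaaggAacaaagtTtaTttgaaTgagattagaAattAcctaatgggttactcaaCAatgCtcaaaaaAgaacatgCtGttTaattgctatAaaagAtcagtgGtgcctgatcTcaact
Cyp2c39: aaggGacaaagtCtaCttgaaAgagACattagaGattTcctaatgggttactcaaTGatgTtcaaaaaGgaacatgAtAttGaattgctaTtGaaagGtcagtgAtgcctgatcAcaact

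General hepatocyte markers were present at like levels on both arrays, with 7 of 7 measured and log2 ratios from −0.26 (Apob) to 0.21 (Apoa1). Pericentral hepatocyte markers varied more, with Glul at 0.58, Oat at 0.32, Lgr5 at −0.26, Axin2 at −0.38 and Slc1a2 at −0.64. The periportal markers Cps1 and Hal had 0.18 and 0.12. Exocrine pancreas markers differed: their signals summed to 684 on the orujo array and 5383 on the olive array over 9 genes, of which 8 of 8 measured genes were at least 2-fold lower on the former. The 5′ and middle control probe sets for 18S ribosomal RNA had log2 ratios of 2.54 and 2.48, and the 3′ one 0.34. Of 6 neutrophil markers, S100a8 (60.8 against 17.2) and S100a9 (49.2 against 20.8) exceeded the floor on the orujo array alone, Camp was below it on both, and the 3 measured ones, Elane, Ngp and Mpo, had log2 ratios of 0.34, −0.03 and −0.40. The Y-linked Uty (57.7 and 72.8) and Eif2s3y (46.4 and 54.2) lay above the floor on both arrays, the Y-linked Kdm5d read 44.3 and 20.7, and Xist read 32.2 and 47.5. The part of these differences between the arrays in the P450 ratios below was not tested.

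Most P450 genes differed little between the arrays. Of the 54 genes, 34 were measured, 2 lay above the floor only on the orujo array (Cyp17a1 and Cyp2j6), 2 only on the olive array (Cyp2c37 and Cyp2j9) and 16 on neither. Among the 34 measured genes, 16 ratios were positive and 18 negative, and the median log2 ratio was −0.12 against −0.02 over all 6640 measured genes. Negative ratios made up 52.9% of the 34 and 52.5% of all measured genes. The latter share is the background for the counts of signs below. Under quantile normalization 11 of the 34 P450 ratios were positive and 23 negative. The spread was similar to that of all genes, with an SD of 0.39 against 0.42, and 21 of the 34 (61.8%) lay within the probe set noise against 64.3% of all measured genes. These comparisons were not matched for signal. The median signals of the 34 were 893 (orujo array) and 911 (olive array), against 117 on each array for all measured genes. One P450 gene, Cyp26a1, was at least 2-fold higher, where the background was 1.36% of all measured genes, and 0 were at least 2-fold lower, where the background was 0.979%. With a limit of 1.5-fold, 2 of 34 were higher (Cyp26a1 and Cyp3a13; background 5.57%) and 1 was lower (Cyp4f15; background 5.56%). These few calls are near the background shares.

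**Figure D1:**
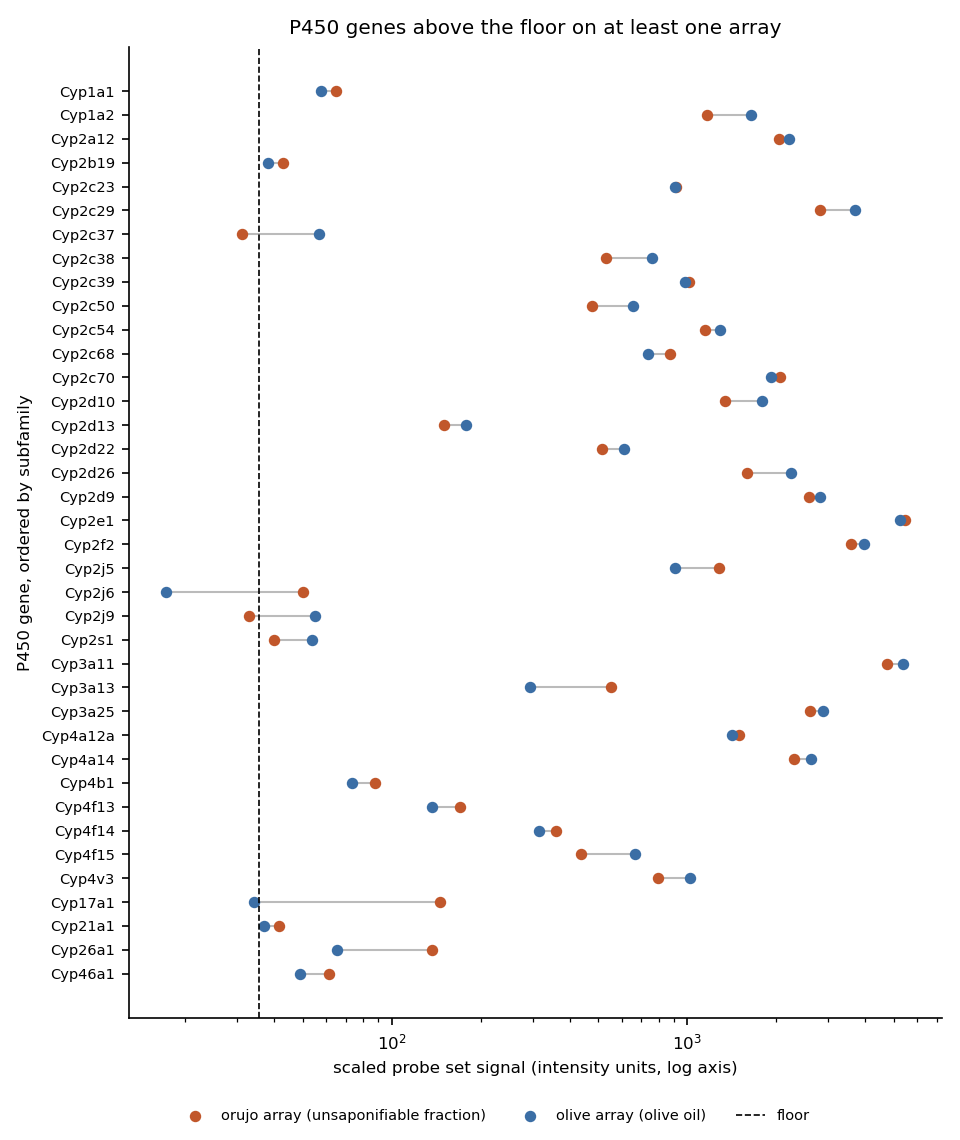
Scaled probe set signal (log axis) of the 38 P450 genes above the floor on at least 1 array, ordered by subfamily, with 1 point per array and the floor of 35.6 as a dashed line. The points of most genes lie close together. The widest gaps are those of Cyp17a1, Cyp2j6, Cyp26a1 and Cyp3a13, with the orujo array higher.

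**Figure D2:**
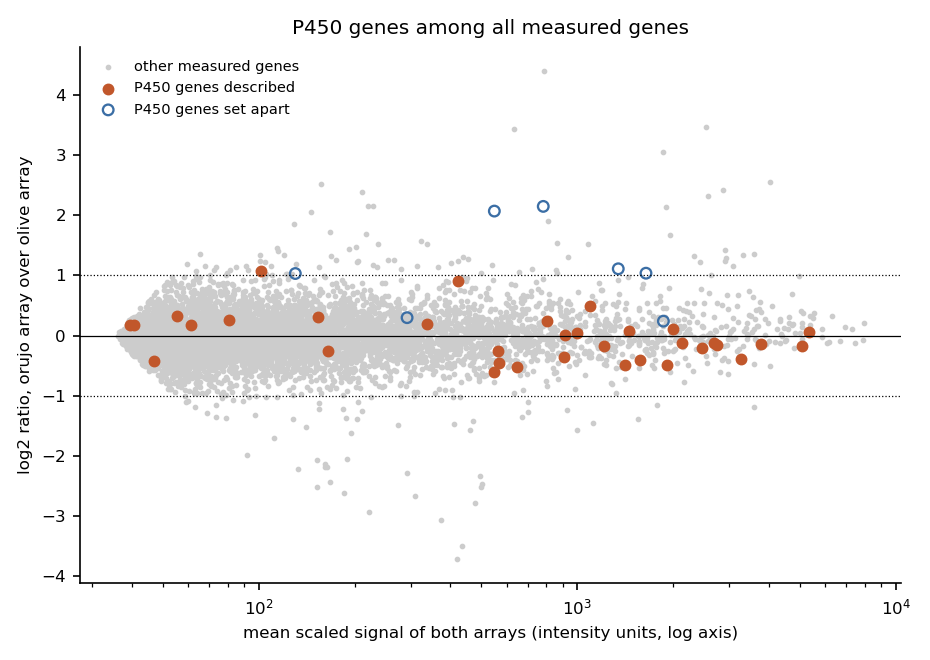
Log2 ratio against the mean scaled signal of both arrays (log axis) for all measured genes, with the P450 genes described here filled and the P450 genes set apart by the naming rule as open circles. Dotted lines mark 2-fold. Of the 34 filled points, 1 lies above the upper dotted line and 0 lie below the lower one.

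A retinoid and a steroid enzyme had the highest ratio and the highest bound. Cyp26a1 read 137 on the orujo array and 65.2 on the olive array, 2.11-fold higher (log2 ratio 1.08). It has 1 probe set, so the value has no repeat. The 2-fold call ended when the floor was raised to the 75th percentile (a bound of 0.44) and with log2(value + floor), which gave 0.78. Cyp17a1, the 17α-hydroxylase of steroid synthesis, read 146 against 34.2, which is just under the floor, and was therefore at least 4.10-fold higher on the orujo array. It too rests on 1 probe set. On the same array the 5′ control for 18S ribosomal RNA was also higher (2.54), and its part in these values was not tested.

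The other genes of steroid hormone synthesis did not share the signal of Cyp17a1. Cyp21a1, the adrenal 21-hydroxylase, read 41.6 and 37.0, and its second probe set was below the floor on both arrays. Cyp11a1, which cleaves the cholesterol side chain, read 1.2 and 0.80, and Cyp11b2, the aldosterone synthase, 18.9 and 22.9. Of the adrenal and gonad markers, Nr5a1 and Mc2r were below the floor on both arrays, and Star, the cholesterol carrier of steroid-making cells, read 28.7 against 57.9, the opposite direction to Cyp17a1.

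The vitamin D enzymes Cyp24a1 and Cyp27b1 were below the floor on both arrays. Cyp46a1, the cholesterol 24-hydroxylase known from neurons, read 61.6 and 49.2, a log2 ratio of 0.32 at the edge of the probe set noise.

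A retinoic acid response element of the form shown above was found in 1 of the 40 P450 genes that matched a promoter window, Cyp26a1. The search took only this spelling of the half-site, the one Cyp26a1 carries. Elements of other spelling were not counted, so the count does not show that Cyp26a1 alone has such an element. Of all 32851 windows of 300 bases, 0.0243% held it. The match begins 32 bases before the annotated start of Cyp26a1. It describes the sequence and says nothing of whether the element was in use. Other motifs were searched in the same windows. They were counted as strings at any position and on either strand, so a match need not be a working site. TATAAA, the string of a TATA box, was found in 18 of the 40 genes and 13.6% of all windows. Its positions in the P450 genes ran from −234 (Cyp3a11) to 29 (Cyp26a1) relative to the annotated start, so not all are placed as a TATA box. The HNF4 site CAAAGTCCA was found in 5 genes and 0.475% of windows, and the half-site AGGTCA in 10 genes and 16.3%. Genes and windows are different units, since the 40 genes have 47 windows.

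The CYP3A enzymes oxidise a broad range of drugs and steroids. Cyp3a13 read 553 and 294, 1.88-fold higher on the orujo array (log2 ratio 0.91), just under the 2-fold limit that Cyp26a1 passed. The other measured members went slightly the other way. Cyp3a11, the main drug-inducible form of mouse liver, read 4760 and 5361 (log2 ratio −0.17), and Cyp3a25 read 2597 and 2889 (−0.15). Both lie within the probe set noise, and the median of the 3 was −0.15. Cyp3a16 and Cyp3a44 were below the floor on both arrays.

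Of the CYP1 enzymes, which metabolise planar aromatic compounds and are induced through the aryl hydrocarbon receptor, Cyp1a2 read 1170 on the orujo array and 1647 on the olive array, 1.41-fold lower (log2 ratio −0.49). Cyp1a1, the form most responsive to that receptor, read 64.8 and 57.6 (0.17). The 3 probe sets of Cyp1b1 were below the floor on both arrays. The receptor gene itself, Ahr, read 152 and 107 (0.51), and its second probe set exceeded the floor on the orujo array alone (62.9 and 28.7).

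In the CYP2C subfamily, whose members oxidise drugs and arachidonic acid, 8 of 11 genes were measured, 4 in each direction, with a median log2 ratio of −0.08. The split depends on the scaling: under quantile normalization 7 were negative and 1 positive, with Cyp2c23, Cyp2c39 and Cyp2c70 turning to −0.06, −0.02 and −0.02, and Cyp2c23 was also below 0 under loess and with no scaling. The lower members were Cyp2c38 (529 and 762, log2 ratio −0.53), Cyp2c50 (478 and 656, −0.46), Cyp2c29 (2825 and 3687, −0.38) and Cyp2c54 (1144 and 1288, −0.17). Cyp2c37, above the floor only on the olive array (31.2 and 56.9), was at least 1.6-fold lower. The others were Cyp2c68 (872 and 738, 0.24), Cyp2c70 (2065 and 1917, 0.11), Cyp2c39 (1018 and 983, 0.05) and Cyp2c23 (914 and 912, 0.00). Cyp2c55 and Cyp2c65 were below the floor on both arrays.

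Likeness of the sequences before the CYP2C starts is set beside the ratios as a description. Over 250 bases, Cyp2c37 and Cyp2c50 were 84.3% identical, and both were lower on the orujo array. Cyp2c38 and the first listed window of Cyp2c39 were 75.8% identical, with ratios of −0.53 and 0.05. Cyp2c29 was 74.1% identical to that window of Cyp2c39 and 68.8% identical to Cyp2c38. Transcripts within CYP2C and CYP2D are alike as well, and probe sets may share signal between them. How far they do was not tested, since probe sequences were not used here.

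The CYP2D genes, whose human relative metabolises many basic drugs, were the one subfamily with at least 3 measured members in which all brightest probe sets went one way: 5 of 5 ratios were negative, with a median of −0.25. Of all measured genes 52.5% were negative, and only 4 subfamilies had at least 3 measured members. Cyp2d26 read 1593 and 2242 (−0.49), Cyp2d10 1347 and 1793 (−0.41), Cyp2d22 513 and 612 (−0.25), Cyp2d13 150 and 179 (−0.25) and Cyp2d9 2577 and 2814 (−0.13). The last 3 lie within the probe set noise. The second probe set of Cyp2d22 gave 0.11, so its sign was not repeated, and that of Cyp2d13 gave −0.06. Cyp2d12 and Cyp2d34 were below the floor on both arrays. The 5 ratios were negative under each of the 4 scaling alternatives too, and 5 of 6 were when the floor was lowered to the 25th percentile. The scaling alternatives are a weak check of the signs. No scaling and centring moved Cyp2d9, the ratio nearest 0, only to −0.13 and −0.11, because they shift all measured genes by the same small amount. Quantile and loess normalization moved it away from 0, to −0.24 and −0.18. The pancreas markers had a median log2 ratio of −2.86 between the same arrays, and its part in these values was not tested.

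The other CYP2 genes were mostly near 0. Cyp2e1, the ethanol-inducible form, read 5460 and 5239 (0.06), Cyp2f2, which bioactivates naphthalene, 3579 and 3962 (−0.15), and Cyp2a12, a steroid hydroxylase, 2041 and 2212 (−0.12). Cyp2s1 read 40.0 and 53.8 (−0.43) and Cyp2b19 42.9 and 38.2 (0.17), both close to the floor. Cyp2g1 was below the floor on both arrays.

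The CYP2J epoxygenases of arachidonic acid had mixed directions. Cyp2j5 read 1286 and 910 (log2 ratio 0.50), but its second probe set gave the opposite sign (−0.17). Cyp2j6 was above the floor only on the orujo array (50 and 17.3, at least 1.40-fold higher). Cyp2j9 was above it only on the olive array (32.9 and 54.9, at least 1.54-fold lower). Cyp2j13 read 17.6 and 5.89, below the floor on both.

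**Figure D3:**
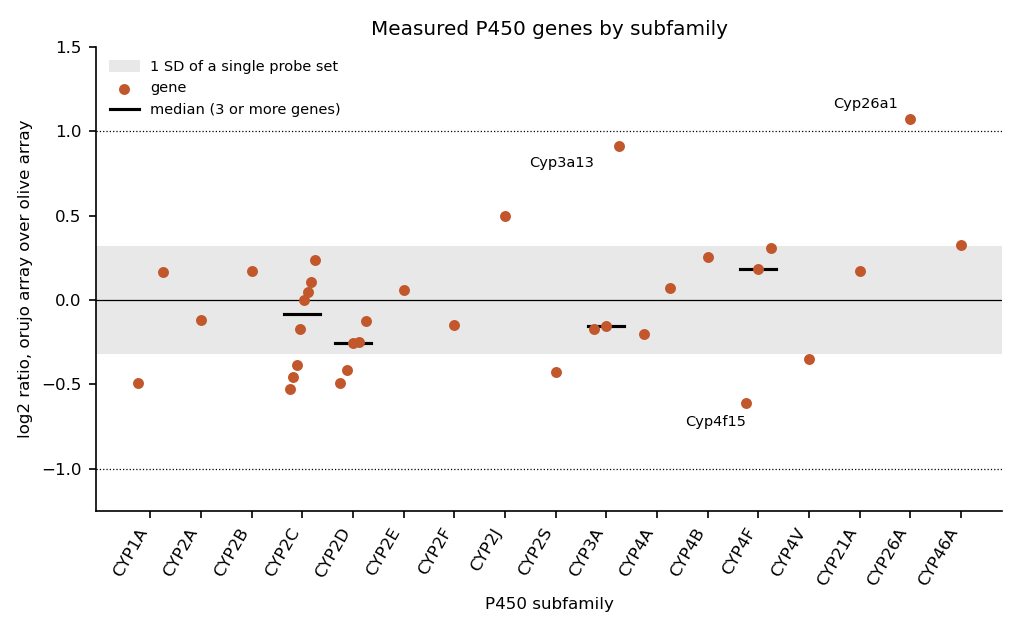
Log2 ratios of the 34 measured P450 genes by subfamily, with 1 point per gene, a bar at the median where a subfamily has 3 or more measured genes, dotted lines at 2-fold and a grey band for 1 SD of a single probe set (0.31). All 5 CYP2D points lie below 0, CYP2C points lie on both sides (7 of 8 below 0 under quantile normalization), and Cyp26a1 is the point above the 2-fold line.

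The fatty acid ω-hydroxylases of CYP4A and CYP4F had no common direction: of 8 genes, 5 were measured, 3 with positive and 2 with negative ratios, and the median was 0.07. Cyp4f15 was the lowest of all measured P450 genes, with 436 on the orujo array and 664 on the olive array, 1.52-fold lower (log2 ratio −0.61). Its relatives Cyp4f13 (170 and 137, 0.31) and Cyp4f14, which hydroxylates leukotriene B4 (359 and 316, 0.19), were on the other side of 0. Cyp4a14, a classic target of the fatty acid receptor PPARα, read 2294 and 2633 (−0.20), and Cyp4a12a, a male-biased arachidonate hydroxylase, 1492 and 1422 (0.07). Cyp4a12a is the median gene of the 5, and its ratio turned to −0.001 under quantile normalization. Cyp4a31, Cyp4f16 and Cyp4f18 were below the floor on both arrays.

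Cyp4v3, which hydroxylates fatty acids, read 799 and 1018 (−0.35), and its second probe set gave −0.41, the closest repeat among the 4 P450 genes with several measured probe sets. Cyp4b1 read 87.6 and 73.3 (0.26). The receptor gene Ppara had a log2 ratio of 0.15.

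The measured genes known for sex-biased expression in mouse liver gave small ratios. Only 1 of these measured genes was female-biased, and Cyp17a1, which was not measured, had a bound of 4.10-fold. The 4 male-biased members, Cyp2d9, Cyp4a12a, Cyp2f2 and Cyp4f14, were all measured, with ratios from −0.15 to 0.19. Of the 4 female-biased members, Cyp4a14 was measured, Cyp17a1 lay above the floor on 1 array, and Cyp3a16 and Cyp3a44 lay below it on both.

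For comparison, of the 9 P450 genes set apart by the naming rule, 7 were measured, all 7 had positive ratios with a median of 1.04, and 5 were at least 2-fold higher, beside 1.36% of all measured genes. They had been separated with such values known, and the difference has no test.

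Genes that supply electrons to P450 enzymes were described from a list of 10 symbols, of which 7 had a probe set annotated with that symbol alone. All 7 were measured. Por, Fdxr and Cyb5 had no such probe set, so the values below say nothing of them. Their median log2 ratio was −0.10, with 2 positive and 5 negative values. Cyb5b, the cytochrome b5 of the outer mitochondrial membrane, was lowest (404 and 633, −0.65), and its other probe sets gave −0.45 and −0.21. Cyb5r3, which encodes a cytochrome b5 reductase, was highest (967 and 891, 0.12). Its other measured probe sets gave −0.02 and 0.26, so its sign was not repeated in each. None of the 7 passed 2-fold in either direction.

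Of 13 listed genes of heme synthesis and breakdown, 12 were measured, 8 with negative ratios, and the median was −0.18. Blvrb, biliverdin reductase B, read 413 on the orujo array and 991 on the olive array, 2.40-fold lower. Alad, which makes porphobilinogen, read 269 and 544, 2.02-fold lower. Alas1, the rate-limiting enzyme of hepatic heme synthesis, read 1553 and 1565 (−0.01), with 0.21 in its second probe set. Hmox2, the constitutive heme oxygenase, was highest (358 and 234, 0.61). Blvrb, Alad and Hmox2 each rest on 1 probe set.

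Of 22 listed receptors and transcription factors, 18 were measured, 10 with positive and 8 with negative ratios and a median of 0.05. Dbp, a clock-controlled activator of several P450 genes, was lowest, with 55.7 against 139, 2.50-fold lower, and −1.33 in its second probe set. Cebpb, a factor of the acute phase response, was highest, with 958 against 582 (0.72) and 0.52 in its second probe set. The xenobiotic receptors Nr1i2 and Nr1i3 gave 0.24 and −0.14. The second probe set of Nr1i2 gave −0.17, so its sign was not repeated. Hnf4a gave 0.18, and its other probe sets gave 0.49, 0.43 and −0.04.

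**Figure D4:**
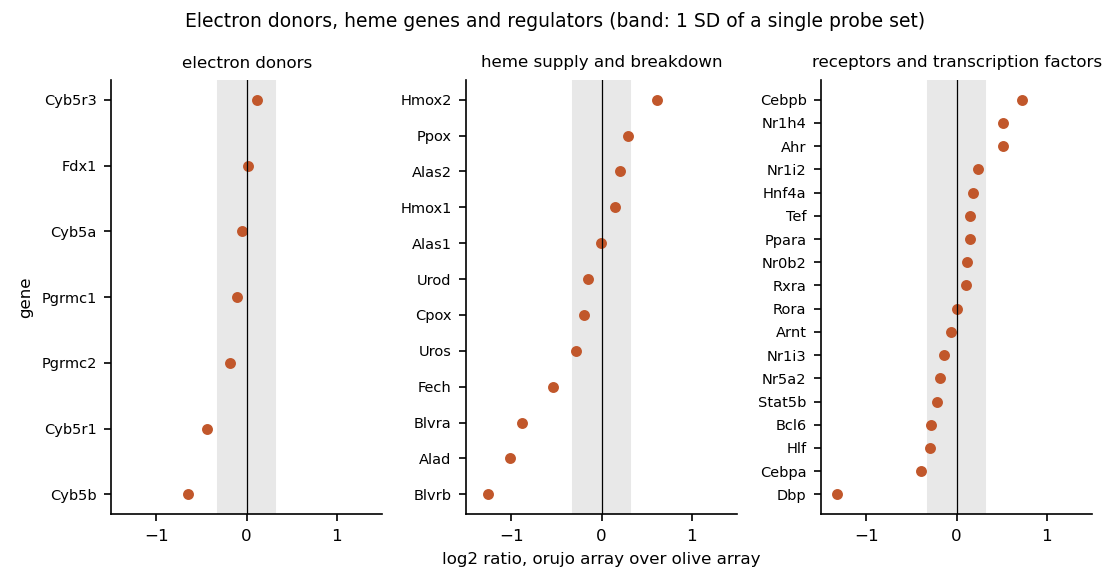
Log2 ratios of the measured genes of 3 lists (electron donors, heme supply and breakdown, receptors and transcription factors), with 1 point per gene and a grey band for 1 SD of a single probe set. Dbp, Blvrb and Alad lie farthest to the left and Cebpb and Hmox2 farthest to the right.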

How the data were processed

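Liver RNA of 2 samples, 1 per diet, was hybridised to Affymetrix mouse arrays. The authors deposited linear probe set intensities, and their 2% trimmed means were 100.05 on both arrays, per the deposited values. No source used here names the summary software or gives detection calls. The 64 control probe sets were set apart, and both arrays were scaled to a common 2% trimmed mean (factors 1.001 and 0.999). Values under the floor were raised to it before log2. A single symbol was annotated for 20380 probe sets, several for 691 and none for 1555. All 54 P450 genes matched the RefSeq table of GRCm38.p6 by Entrez identifier. A gene was represented by the brightest of its probe sets (by mean log2 value). Where it exceeded the floor on 1 array only, it has a bound, its signal over the floor. The number of arrays limits the precision.

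No test of the diets was possible. Named are, per subfamily, the highest and lowest ratio, all members past 1.5-fold or with such a bound, the 5 brightest members, and the extremes of each fixed list. Other members were named for completeness after their values were seen. Members, lists and limits were chosen with earlier results of these data known. Medians are given for subfamilies with at least 3 measured genes. Alternatives covered scaling, quantile and loess (span 0.4) normalization, the floor (25th and 75th percentile, or added to each value), the limit, and the choice of probe sets. The calculation was tested on simulated data. Python 3.11.15, pandas 2.3.3, statsmodels 0.14.6 and Biopython 1.88 were used.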

Additional observations from a re-analysis of the deposited data

Results flagged for a closer look

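One probe set outside the genes described here gave a signal of 147 on the olive array and 19.1 on the orujo array, below the floor there, so it was at least 4.11-fold lower on the latter. Its annotation lists 2 P450 symbols, and it was therefore named for no gene and used in no count. It was singled out as a signal in data that the report's comparisons do not use.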

How the results depend on the processing

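The count of P450 genes at least 2-fold higher was 1 and became 3 with the floor at the 25th percentile (Cyp17a1 and Cyp2j6 joined Cyp26a1), 0 with the floor at the 75th and 2 with a limit of 1.5-fold. With log2(value + floor) the count was also 1, but the gene was Cyp17a1. The count at least 2-fold lower was 0, became 1 with the limit of 1.5-fold and was 0 under the other alternatives run. The median log2 ratio of measured P450 genes ranged from −0.22 (quantile normalization, 23 of 34 negative) to −0.09. The CYP2D median ranged from −0.33 to −0.15, CYP3A from −0.24 to −0.14 and CYP2C from −0.38 (floor at the 25th percentile, with more genes measured) to −0.07. The CYP4F median changed sign with log2(value + floor), from 0.19 to −0.01. Cyp17a1 kept its direction, with values between 0.53, a bound at the 75th percentile, and 2.10 on the log2 scale. Cyp26a1 was above the floor on 1 array only at the 75th percentile, with a bound of 0.44. Cyp2j5 fell to 0.16 with the mean over probe sets. No paired analysis was possible because each diet has 1 array. Signals close to the floor limit the weaker genes.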

Other observations

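Another 3 probe sets annotated with several P450 symbols were named for no gene. One read 2190 on the orujo array and 2898 on the olive array (log2 ratio −0.40), one read 3554 and 3426 (0.05), and one was below the floor on both arrays.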
